A study of Mus musculus with 32 samples.

Results

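Expression in the livers of wild-type mice killed 20 h after a systemic dose of lipopolysaccharide (LPS) was compared with that in wild-type mice given saline, using 12 of the 32 arrays of a study of E2f1 in the innate response to LPS. The members were chosen by their labels: the 6 arrays titled as wild-type saline and the 6 titled as wild-type LPS at 20 h, each array from 1 liver. All 12 mice were labelled E2F1+/+ of strain B6x126 F2, with tissue liver and with 20 h as the time for both groups. Neither dose, route beyond "systemic", sex nor age was used here, because the labels do not give them. Wild-type mice at 6 h after LPS (4 arrays) and mice of genotype E2F1-/-, whose strain label differs from that of the wild type, on saline or at 20 h after LPS serve only as comparators. The label for RNA extraction names lung while the tissue label names liver, so the arrays were checked against markers. Albumin (Alb) was at 9.54 to 10.50 on saline (median 10.06) and 9.19 to 10.08 at 20 h (median 9.79) on the log2 scale used throughout, and Cyp2c29, a cytochrome P450 of hepatocytes, at 7.36 to 7.91 on saline (median 7.55) and 4.56 to 6.29 at 20 h (median 5.55). Of 8 lung epithelial markers 5 were not well above background on enough arrays to be tested, and Scgb1a1, the secretory protein of club cells, lay at −6.51 to −3.21 on saline (median −4.80) and −4.24 to −2.49 at 20 h (median −3.34). The other lung markers measured, the surfactant collectins Sftpa1 and Sftpd, lay at −5.73 to −4.16 on saline (median −5.17) and −2.07 to 1.03 at 20 h (median −0.42) and at −5.97 to −2.22 on saline (median −4.86) and −2.39 to −0.98 at 20 h (median −1.39), and both rose at 20 h. Both hepatocyte genes were thus high on every array, and all 3 lung markers were below the array's 75th percentile, which is 0 on this scale, on every saline array.

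LPS is the outer-membrane glycolipid of Gram-negative bacteria. It is bound by CD14 and sensed by Toll-like receptor 4 with MD-2, which drives NF-kB and, through TRIF and IRF3, type I interferon. In the liver, Kupffer cells and sinusoidal endothelium meet it first, and their IL-1, TNF and IL-6 act on hepatocytes. Hepatocytes then make acute-phase proteins and lower many of the enzymes, transporters and plasma proteins they make at rest. Early cytokine and interferon transcripts peak within hours, so a sample at 20 h shows what persists, what has declined and what arises late.

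Values are log2 of the background-subtracted signal minus the array's 75th percentile, so 1 unit is a 2-fold difference and 0 is the signal at that percentile of the same array. On the 12 arrays that percentile lay between 437 and 1138 signal units, and between 21106 and 28891 spots were well above background. A change is the difference of 2 group means with its standard error (SE) from limma, and a call means a p adjusted by the Benjamini-Hochberg method over 18383 gene names that reaches 0.05 or less. Wild-type saline array 5 stood apart from the other saline arrays before any test. It had Lcn2, a neutrophil and hepatocyte siderophore binder, at 3.90 where the saline median was −0.29, the chemokine Cxcl9 at 3.89 against 0.34, and Cd14 at 3.55 against −0.94. Without that array the counts of calls were 3408 higher and 4094 lower, against 3617 and 4289 with it. Among the LPS arrays, array 2 lay nearest to saline along the first principal component (22.7, where saline spanned −99.9 to −74.5) and array 4 farthest (101). Arrays 3, 5 and 6 of the LPS group and 3, 4 and 6 of the saline group were scanned on 1 date, LPS arrays 1 and 4 and saline arrays 1, 2 and 5 on another, and LPS array 2 alone of the 12 on yet another. Within the first date 2620 genes were called higher and 3332 lower, and within the second 2425 and 2982. Of the 6 h arrays, 1 and 2 were scanned on that last date, on a slide with no other wild-type array, 3 on the first and 4 on the second. Differences between 6 h and 20 h thus cannot be fully told apart from scan date or slide.

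At 20 h 7906 of 18383 gene names were called (43.0%): 3617 higher (19.7%) and 4289 lower (23.3%). The median change over all names was −0.02. Counts of list members below stand against these shares, and a count near them is no result about the list. Where limma called no member of a list in one direction at 20 h against wild-type saline, 0 members had an unadjusted p under 0.05 in that direction too, unless a number is given. At least a 2-fold change was reached by 2173 of the higher (11.8% of all names) and by 2880 of the lower (15.7%), and the 6 values of the 2 groups did not overlap for 1789 higher (9.73%) and 2460 lower (13.4%). The largest rises were in the antimicrobial C-type lectins Reg3b and Reg3g. Reg3b read −7.95 to −0.43 on saline (median −6.93) and 3.80 to 6.74 at 20 h (median 4.84). Reg3b was well above background on saline array 5 alone among the saline arrays and on every LPS array, and the groups were apart by more than 4 units, with a change of 10.99 ± 1.01 SE, adjusted p = 4.09e-07. Lcn2 read −3.04 to 3.90 on saline (median −0.29) and 7.47 to 8.19 at 20 h (median 7.98), which is a 267-fold difference of the means (8.06 ± 0.79 SE, adjusted p = 8.12e-07). The steroid sulfate carrier Slc10a6 (7.55 ± 0.83), the estrogen sulfotransferase Sult1e1 (7.41 ± 0.55), the p53-family factor Trp63 (6.95 ± 0.74), the ubiquitin-like modifier Ubd (6.60 ± 0.78) and the granule protein Ngp (6.61 ± 0.53) also stood among the 15 largest rises. Trat1, which codes for an adaptor of the T cell receptor, rose by 8.76 ± 0.69, and its second probe by 5.82, while Cd3e of the same receptor changed by 0.10 ± 0.26 SE, adjusted p = 0.792.

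The largest fall was in Hsd3b5, a male-biased hepatic 3-ketosteroid reductase. It read 5.20 to 6.33 on saline (median 5.75) and −4.49 to −0.37 at 20 h (median −3.44), so even the highest LPS array lay more than 5 units below the lowest saline array, and the means differed 475-fold (−8.89 ± 0.51 SE, adjusted p = 4.62e-09). Hsd3b2, Hsd3b3, Hsd3b4 and Hsd3b6 of the same family were also among the 15 largest falls, although near-identical family members may share probe signal. The glycine acyltransferase-like Keg1 fell by 7.48 ± 0.53, the vesicular glutamate transporter Slc17a8 by 6.52 ± 0.45, the aldehyde oxidase Aox3 by 6.02 ± 0.45, and the Wnt deacylase Notum by 5.97 ± 0.43. Mmp15, a membrane-anchored metalloproteinase, read −0.75 to 0.98 on saline (median 0.47) and −7.53 to −3.41 at 20 h (median −5.88). The steroid 5-alpha reductase Srd5a1 fell by 5.59 ± 0.38. Some of these changes have one end near background. Reg3g was at −1.26 on saline array 5 and at −5.76 or lower on the other saline arrays. The lowest signals well above background were −3.96, −3.56 and −5.62 on saline arrays 1, 2 and 3. Among genes described here, Reg3b, Trat1, Camp, Il1r2, Mmp8, Itgam, Tnf and Il10 were well above background on 1 of the 6 saline arrays, Ngp and Irg1 on 2, and Ch25h, Slc10a6, Ltf, Cxcl13 and Cyp1b1 on 3, while Slc17a8, Notum and Faim3 were so on 1 of the 6 LPS arrays and Mmp15 on 2. Against 6 h, 7540 names were called at 20 h (41.0%), 3729 higher (20.3%) and 3811 lower (20.7%). With slide as a fixed block 1985 were higher and 2855 lower.

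**Figure D1:**
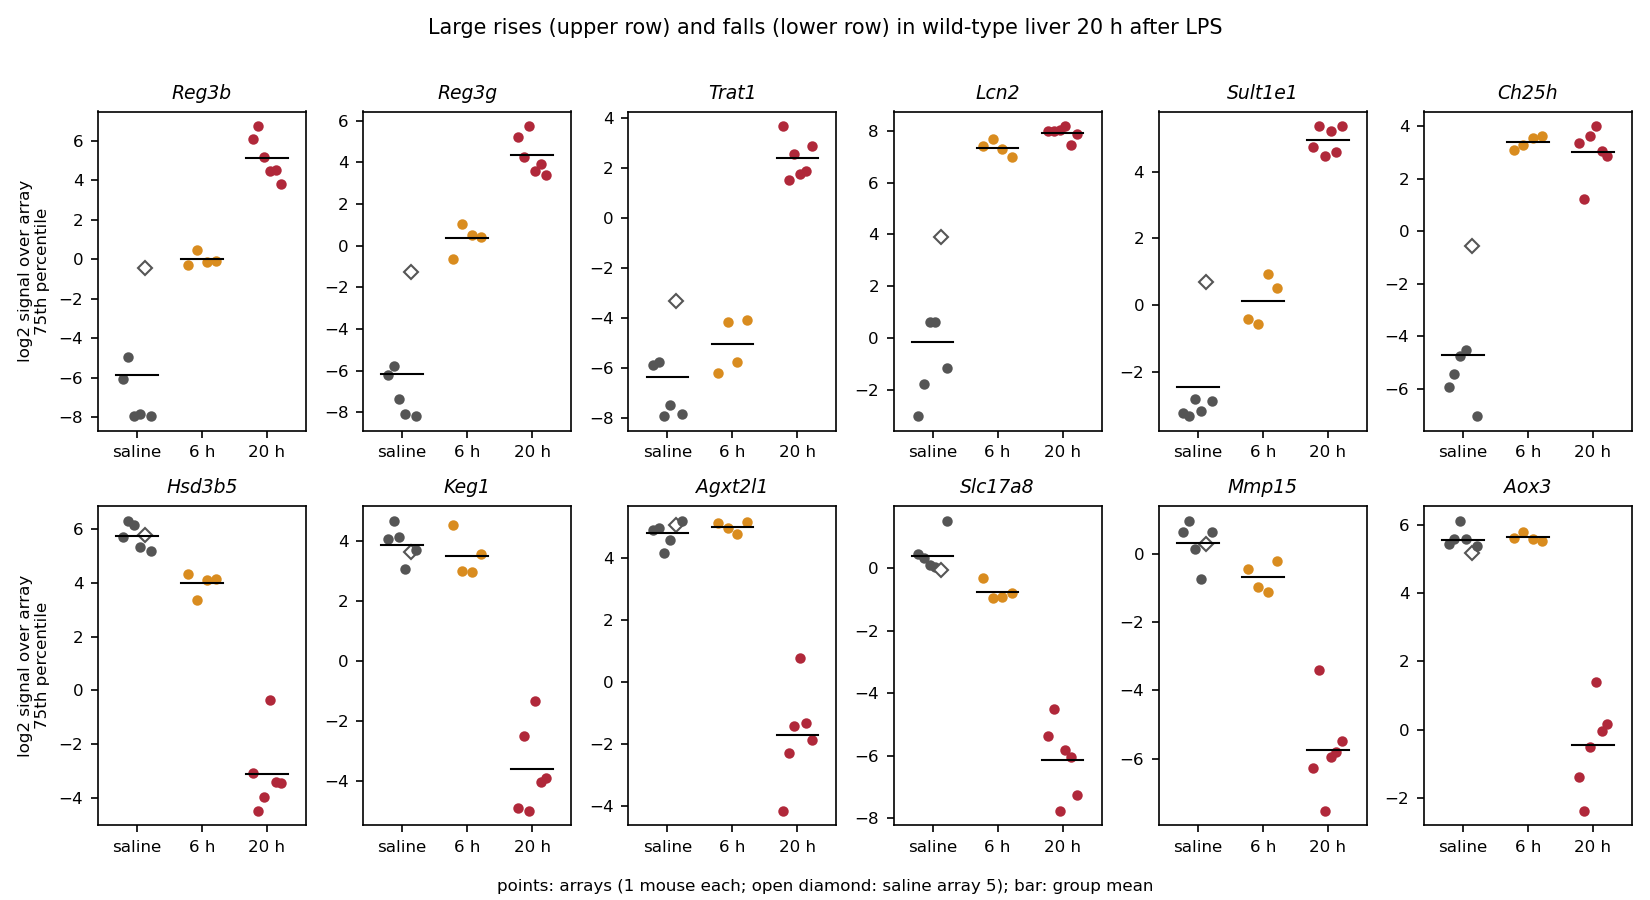
Log2 value on each wild-type array (points) and group mean (bar) for 6 of the largest rises (upper row) and 6 of the largest falls (lower row) at saline, 6 h and 20 h after LPS. Hsd3b5 lies between 5.20 and 6.33 on saline and between −4.49 and −0.37 at 20 h, and saline array 5, drawn as an open diamond, is the highest saline value in each panel of the upper row.

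Of 30 measured acute-phase proteins, which hepatocytes secrete during inflammation, 22 rose and 2 fell at 20 h, with a median change of 1.76. Orm2, an orosomucoid that binds drugs and steroids, read 4.80 to 5.68 on saline (median 5.33) and 7.85 to 8.36 at 20 h (median 8.18), with no overlap (2.88 ± 0.20 SE, adjusted p = 2.38e-08). It was also higher at 20 h than at 6 h (1.10 ± 0.22 SE, adjusted p = 0.000868). The serum amyloid genes had a wide saline range: Saa1 read 4.87 to 9.50 on saline (median 7.55) and 9.02 to 10.14 at 20 h (median 9.81), and the groups overlapped only through saline array 5, at 9.50 (2.30 ± 0.56 SE, adjusted p = 0.0034). Saa1 and Saa2 are near-identical, and their probes may share signal. Metallothionein Mt1, a zinc-binding protein, rose by 4.92 ± 0.59 and Mt2 by 4.45 ± 0.66, and the groups did not overlap for either gene. Slc39a14, the zinc and iron importer of inflamed hepatocytes, read 2.04 to 3.24 on saline (median 2.82) and 3.66 to 5.70 at 20 h (median 4.21), a change of 1.77 ± 0.32 SE (adjusted p = 0.000333). It was lower than at 6 h (−1.19 ± 0.36 SE, adjusted p = 0.0144). Haptoglobin (Hp) did not pass the test (−0.00 ± 0.21 SE, adjusted p = 0.998), nor did fibrinogen beta (Fgb, −0.12 ± 0.24 SE, adjusted p = 0.71) or hepcidin (Hamp, −0.23 ± 0.28 SE, adjusted p = 0.538). The second hepcidin gene, Hamp2, read 2.84 to 5.19 on saline (median 3.47) and −1.24 to 1.48 at 20 h (median −1.06) and fell by 4.27. The other fall was C-reactive protein (Crp), an acute-phase protein in humans, and without saline array 3, 4 or 6 or LPS array 1, 3 or 4 only 1 fall was called. Against 6 h, 5 acute-phase members were higher and 5 lower.

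The 23 measured carrier proteins that hepatocytes make less of in inflammation had 0 rises and 13 falls, median −0.74. Transthyretin (Ttr), which carries thyroxine and retinol-binding protein, read 4.79 to 5.50 on saline (median 5.29) and 0.81 to 2.82 at 20 h (median 2.18), with all LPS arrays below all saline arrays (−3.11 ± 0.27 SE, adjusted p = 2.32e-07). Igfals, the acid-labile subunit of the circulating IGF complex, fell by 3.66 ± 0.30. The retinol carrier Rbp4 fell by 1.45 and the corticosteroid-binding globulin Serpina6 by 1.35, each with overlapping arrays, and Serpina6 did not pass with slide as a block (−0.99, adjusted p = 0.125). Alb (−0.32 ± 0.21 SE, adjusted p = 0.225) and transferrin (Trf, −0.33 ± 0.16 SE, adjusted p = 0.113) did not pass, except with array weights, where Alb changed by −0.56 (adjusted p = 0.0272) and Trf by −0.49 (adjusted p = 0.015). Of the 23, 16 were lower at 20 h than at 6 h, Ttr by 3.05. Of 4 measured Reg lectins 3 rose, and the same number were higher at 20 h than at 6 h, Reg3b by 5.14 ± 1.13. Reg3a was not well above background on any saline array and was at least 5.41-fold higher at 20 h (4.45 ± 0.48 SE, adjusted p = 2.05e-06).

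Neutrophil transcripts were raised in every LPS liver. Of 28 measured markers 25 rose and 0 fell (median 3.77), and the list's median level over the saline mean ran from −0.40 to 0.88 on the saline arrays and from 2.79 to 4.53 on the LPS arrays. The calprotectin subunit S100a8 read −3.80 to −0.55 on saline (median −2.06) and 1.89 to 3.36 at 20 h (median 2.87), a change of 4.85 ± 0.42 SE (adjusted p = 1.95e-07). Secondary granule genes made during marrow maturation were part of it: Ngp read −7.57 to −3.59 on saline (median −5.99) and −0.01 to 1.78 at 20 h (median 0.66), Camp rose by 5.10 ± 0.46 and Ltf by 4.001 ± 0.48. All 3 were apart between the groups, and Ngp was higher at 20 h than at 6 h (1.73 ± 0.59 SE, adjusted p = 0.0264). The decoy IL-1 receptor Il1r2 rose by 6.24 ± 0.43 and the collagenase Mmp8 by 5.38 ± 0.46. Csf3r, the G-CSF receptor, did not pass (−0.66 ± 0.39 SE, adjusted p = 0.191). It was lower with scan date as a block (−0.87, adjusted p = 0.00656). In whole-liver RNA more cells of a type and more RNA per cell cannot be told apart, here and for every list of markers below.

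Of 23 markers of monocytes and recruited macrophages 14 rose and 3 fell (median 1.04). The chitinase-like Chi3l3 (now Chil3) read −3.34 to 0.17 on saline (median −2.46) and 3.06 to 4.41 at 20 h (median 3.38), with no overlap, and was 2.76 ± 0.62 above its 6 h level. Itgam, the CD11b integrin chain, also rose (3.96 ± 0.51) and was higher than at 6 h (1.94 ± 0.57 SE, adjusted p = 0.0117), and so was osteopontin (Spp1, 1.65 ± 0.27 over saline, 1.23 ± 0.31 SE, adjusted p = 0.0041 over 6 h). Trem2, a lipid-sensing receptor of macrophages, fell by 3.06 ± 0.47 and lysozyme Lyz2 by 1.27 ± 0.27.

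Transcripts that mark Kupffer cells, the resident macrophages of the sinusoids, went the other way. Of 20 measured 14 fell and 3 rose (median −1.69), and 12 were lower at 20 h than at 6 h with 0 higher. The list's level ran from −0.12 to 0.16 on the saline arrays and from −2.87 to −0.71 on the LPS arrays, where array 2 was the least changed (−0.71) and array 1 the most (−2.87). Clec4f, a galactose-binding lectin of Kupffer cells, read 3.61 to 4.36 on saline (median 3.92) and 0.13 to 1.74 at 20 h (median 0.96), a change of −2.95 ± 0.27 SE (adjusted p = 4.4e-07). The complement receptor Vsig4 read 0.80 to 1.77 on saline (median 1.19) and −5.01 to −1.78 at 20 h (median −2.65), a change of −4.19 ± 0.41 SE (adjusted p = 7.92e-07). The scavenger protein Cd5l fell by 3.93 ± 0.38. None of these 3 overlapped between the groups. Among the exceptions, the scavenger receptor Marco rose by 3.05 ± 0.48, and the heme oxygenase Hmox1 by 1.70 ± 0.28.

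Sinusoidal endothelial markers fell in 16 of 25 cases and rose in 3 (median −1.01). The lectin Clec4g read 3.16 to 4.61 on saline (median 3.96) and −2.42 to −0.41 at 20 h (median −1.74) and the VEGF receptor Kdr 1.56 to 2.40 on saline (median 1.79) and −2.81 to 0.18 at 20 h (median −2.22). Both were apart, with changes of −5.46 ± 0.37 SE, adjusted p = 1.94e-08 for Clec4g and −3.64 ± 0.40 SE, adjusted p = 2.78e-06 for Kdr. Wnt2, the endothelial Wnt ligand that sustains pericentral hepatocytes, read 0.27 to 0.81 on saline (median 0.35) and −2.94 to −0.31 at 20 h (median −2.21), a change of −2.51 ± 0.42 SE (adjusted p = 0.000139). It had been lower still at 6 h, at −3.31, −4.42, −3.55 and −2.42 (1.40 ± 0.46 SE, adjusted p = 0.0237). The hyaluronan receptor Lyve1 rose by 3.02 ± 0.38, the junction cadherin Cdh5 by 0.99 ± 0.18, and Stab2, another hyaluronan scavenger, did not pass (0.21 ± 0.36 SE, adjusted p = 0.661). Markers of 1 cell type thus moved in both directions.

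Endothelial activation genes rose in 13 of 20 cases and fell in 2 (median 2.16). The leukocyte-rolling receptor Selp read −2.59 to −1.89 on saline (median −2.33) and 0.25 to 2.22 at 20 h (median 1.11), a change of 3.45 ± 0.29 SE (adjusted p = 1.39e-07). The integrin ligand Icam1 read 0.35 to 1.87 on saline (median 0.85) and 3.21 to 5.58 at 20 h (median 3.97), a change of 3.21 ± 0.42 SE (adjusted p = 1.35e-05). Selp was 2.05 lower at 20 h than at 6 h, and 7 members of the list were lower than at 6 h against 2 higher. Von Willebrand factor (Vwf), the platelet-binding multimer, fell by 1.07 ± 0.23.

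Of 26 stellate cell and matrix genes 6 rose and 12 fell (median −0.77). The collectin Colec11 read 3.49 to 4.39 on saline (median 4.06) and −1.62 to 0.92 at 20 h (median 0.39), a change of −3.81 ± 0.34 SE (adjusted p = 2.74e-07). The neurotrophin receptor Ngfr fell by 2.95, although its second probe changed by −0.53. The basement membrane collagen Col4a1 (2.44 ± 0.27) and the metalloproteinase inhibitors Timp1 (1.79 ± 0.24) and Timp3 (2.15 ± 0.31) rose, while the fibrillar collagen Col1a1 fell (−1.91 ± 0.55). Cholangiocyte markers had 2 rises (Sox9 2.82 ± 0.35 and Spp1) and 2 falls (Krt7 −1.39 ± 0.35 and Krt23 −2.19 ± 0.44) among 9. That is 22.2% each way, near the shares of all names. T and NK cell markers rose in 8 and fell in 3 of 23: granzyme B (Gzmb) rose by 3.52 ± 0.38 and the chemokine Ccl5 by 5.24 ± 0.40, the kinase Zap70 fell by 2.43, and Cd4 (−0.12 ± 0.22) and Cd8a (−0.07 ± 0.36) did not pass. B cell markers fell in 7 of 14 and rose in 1, which was Xbp1, a gene most cells use, and whose rise did not pass in the deposited processed table (1.17, adjusted p = 0.179). The receptor component Cd79b read −1.52 to −0.42 on saline (median −0.97) and −3.19 to −2.64 at 20 h (median −2.83), a change of −1.88 ± 0.19 SE (adjusted p = 1.24e-06). The IgM receptor Faim3 (now Fcmr) fell by 3.07. Erythroid markers fell in 4 of 6 (2 with all 32 arrays, quantile normalization or slide as a block), the carbonic anhydrase Car1 by 2.27 ± 0.25, and platelet markers rose in 5 of 9 (3 with all 32 arrays, normexp or the deposited processed table), platelet factor Pf4 by 1.44 ± 0.29. The surfactant collectins Sftpa1 (4.52 ± 0.48) and Sftpd (3.08 ± 0.56) rose and the other measured lung marker, Scgb1a1, did not pass (1.38 ± 0.58 SE, adjusted p = 0.0665). It passed without saline array 3 (1.68, adjusted p = 0.0291) or 6 (1.60, adjusted p = 0.0453) and in 6 other settings. None of 7 pancreatic acinar markers was called by limma, and 0 had an unadjusted p under 0.05. The part these cell type markers have in the other results was not tested.

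The LPS sensing machinery was still raised at 20 h but mostly below 6 h. Of 38 measured Toll-like receptor and NF-kB genes 21 rose and 2 fell (median 0.69), yet 21 were lower at 20 h than at 6 h and 0 higher. Cd14, the co-receptor that hands LPS to TLR4, read −1.73 to 3.55 on saline (median −0.94) and 5.67 to 8.08 at 20 h (median 7.06), with saline array 5 the only saline value above 0 (7.30 ± 0.70 SE, adjusted p = 5.9e-07). It did not differ detectably from 6 h (1.12 ± 0.78 SE, adjusted p = 0.268). Tlr2, a receptor for bacterial lipopeptides, was at 6.57, 6.63, 6.50 and 7.08 on the 6 h arrays and at 0.94 to 4.01 at 20 h (−4.61 ± 0.47 SE, adjusted p = 1.83e-06), and its rise over saline (2.20 ± 0.42) did not pass with all 32 arrays in the fit (adjusted p = 0.06). Tlr4 itself did not pass (−0.33 ± 0.26 SE, adjusted p = 0.313). The negative regulators Tnfaip3, a deubiquitinase (4.21 ± 0.47), and Irak3, a kinase-dead IRAK (5.06 ± 0.45), rose and were apart, whereas Sigirr, another brake on this pathway, fell by 2.57 ± 0.31 and Tlr9 by 2.04 ± 0.17.

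Of 31 cytokines and receptors 18 rose and 2 fell, and 15 were lower than at 6 h with 2 higher. Il1b read −2.68 to −0.92 on saline (median −1.97) and 0.29 to 1.96 at 20 h (median 0.57) and was at 2.91, 3.97, 3.77 and 3.16 at 6 h (−2.64 ± 0.38 SE, adjusted p = 4.03e-05), so its 20 h level lay between those of the other groups. Tnf followed that order too (20 h against 6 h, −2.29 ± 0.41 SE, adjusted p = 0.000284), while the anti-inflammatory Il10 did not differ detectably between the times (−0.05 ± 0.40 SE, adjusted p = 0.926). The IL-1 receptor Il1r1 rose by 4.14 ± 0.30 and its antagonist Il1rn by 6.37 ± 0.73, and the alarmin Il33 by 3.77 ± 0.59. The genes of the list that fell were Il18 (−1.96 ± 0.24) and the receptor Lifr, which read 5.29 to 6.05 on saline (median 5.57) and 1.46 to 3.65 at 20 h (median 2.21), a change of −3.24 ± 0.29 SE (adjusted p = 3.37e-07). CXC chemokines rose in 9 and fell in 1 of 12, the fall being the constitutive Cxcl12 (−0.84 ± 0.17), which did not pass with all 32 arrays in the fit (adjusted p = 0.0752). Cxcl9, the interferon-gamma-induced T cell attractant, read −0.20 to 3.89 on saline (median 0.34) and 6.43 to 8.06 at 20 h (median 7.35), a change of 6.50 ± 0.54 SE (adjusted p = 1.44e-07). The B cell attractant Cxcl13 rose by 5.16 ± 0.60. CC chemokines rose in 10 and fell in 4 of 17, with 10 lower than at 6 h. The monocyte attractant Ccl2 rose by 5.86 ± 0.78, while Ccl4 stood 5.50 below 6 h and the hepatic Ccl27a fell by 2.24 against saline. STAT3 and SOCS feedback genes rose in 13 and fell in 3 of 23. Socs3, the inhibitor of IL-6 receptor signalling, read 1.28 to 3.76 on saline (median 2.81) and 5.12 to 6.70 at 20 h (median 6.15), a change of 3.42 ± 0.40 SE (adjusted p = 4.67e-06). The fibrinogen-like hepatokine Fgl1 rose by 2.25 ± 0.35 and was higher than at 6 h (1.10 ± 0.39 SE, adjusted p = 0.0314). Cish (−0.06 ± 0.47 SE, adjusted p = 0.929) and Jak2 (0.59 ± 0.35 SE, adjusted p = 0.183) did not pass at 20 h, and both were lower than at 6 h. Jak2 passed with slide as a block (0.94, adjusted p = 0.0464).

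Macrophage effector enzymes rose in 18 and fell in 1 of 22. Irg1 (now Acod1), which makes itaconate, read −7.70 to −1.23 on saline (median −5.41) and 0.91 to 3.18 at 20 h (median 1.91), a change of 7.23 ± 0.80 SE (adjusted p = 2.74e-06). The 25-hydroxycholesterol synthase Ch25h rose by 7.72 ± 0.78 and the histidine decarboxylase Hdc by 3.90 ± 0.28. The fall was the constitutive cyclooxygenase Ptgs1 (−2.21 ± 0.31). Inflammasome and pyroptosis genes rose in 6 and fell in 1 of 12, led by Mefv (3.11 ± 0.31), which codes for pyrin, and Casp4 (2.59 ± 0.42), the caspase that binds intracellular LPS. With slide as a block 3 of the list rose. The fall was Nlrp6, and it was not called without saline array 1, 2, 4 or 5 or LPS array 2, 5 or 6.

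Interferon-stimulated genes differed widely among the LPS mice. Of 34 measured 20 rose and 0 fell at 20 h (median 1.36), and 28 were lower than at 6 h, 0 higher. The list's level ran from −0.56 to 0.58 on saline and from 0.18 to 3.10 at 20 h, where array 2 was the lowest and array 4 the highest, and from 3.31 to 4.40 at 6 h. With all 32 arrays in the fit 11 of the list rose against saline. Wherever it is used here, the fit with all 32 arrays also holds the arrays of mice labelled E2F1-/-. Among them is their saline array 1, which correlated with the rest of its group at only 0.894 to 0.898. The part of that array in calls lost under this fit was not tested. Isg15, a ubiquitin-like modifier, and Rsad2, the antiviral enzyme viperin, are classical targets of the factor ISGF3, which binds the interferon-stimulated response element. Their promoters are shown because each holds a match (capitals) to TTTC, any 2 bases and TTTC again, or to the reverse complement, within the 250 bases before the RefSeq start in GRCm38.p6. Isg15 lies at chr4:156200819-156201068, minus strand, with 3 overlapping matches that begin 78, 72 and 66 bases before the start, and Rsad2 at chr12:26456453-26456702, minus strand, with 1 that begins 120 bases before it.
Isg15: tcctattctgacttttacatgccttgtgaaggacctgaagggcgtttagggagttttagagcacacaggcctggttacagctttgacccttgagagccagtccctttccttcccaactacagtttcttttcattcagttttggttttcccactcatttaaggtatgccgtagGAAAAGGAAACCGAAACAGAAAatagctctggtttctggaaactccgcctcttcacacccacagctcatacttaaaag
Rsad2: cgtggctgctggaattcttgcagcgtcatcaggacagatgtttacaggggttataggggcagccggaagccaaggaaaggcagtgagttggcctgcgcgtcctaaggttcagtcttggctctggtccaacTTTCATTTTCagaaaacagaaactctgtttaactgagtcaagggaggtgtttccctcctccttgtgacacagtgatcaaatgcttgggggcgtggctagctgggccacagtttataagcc

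Such a match was in 3.44% of 32851 RefSeq promoter windows of 300 bases (250 before to 50 after the start). It was in 13 of the 23 interferon-stimulated genes with a window, 7 of which rose, against 6 of the 10 without a match. A gene counted if any of its windows held a match, so the share of windows is not a like measure for genes. Isg15 read −0.30 to 2.99 on saline (median 1.69) and 2.74 to 6.52 at 20 h (median 5.002), and Rsad2 0.34 to 3.19 on saline (median 0.54) and 1.20 to 7.07 at 20 h (median 3.01). Both overlapped between the groups (3.20 ± 0.59 SE, adjusted p = 0.000346 for Isg15, 2.51 ± 0.79 SE, adjusted p = 0.0165 for Rsad2, which was not called with all 32 arrays in the fit, adjusted p = 0.0968), and on the 6 h arrays Rsad2 was at 8.27, 9.03, 8.38 and 8.79. Irf7, the amplifier of the interferon response, was uniform at 0.25 to 1.33 on saline (median 0.70) and 3.55 to 5.29 at 20 h (median 4.51), a change of 3.74 ± 0.30 SE (adjusted p = 1.13e-07). It did not differ detectably from 6 h (0.30 ± 0.34 SE, adjusted p = 0.511). The sensor Zbp1 rose by 3.78 ± 0.47 and was apart. Of 13 interferon-inducible GTPases, which coat pathogen vacuoles, 12 rose and 0 fell (median 3.19), and 10 were lower than at 6 h. Gbp2 read −1.69 to 2.54 on saline (median −1.21) and 2.72 to 6.87 at 20 h (median 5.36), with array 2 the lowest LPS value (5.87 ± 0.71 SE, adjusted p = 6.88e-06), and Gbp4 rose by 5.04 ± 0.49.

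Class I antigen presentation genes rose in 10 of 13 and class II genes in 0 of 10, where 1, the transactivator Ciita, fell (−1.81 ± 0.47). With arrays centred on their medians 5 class I genes rose, and without LPS array 3 or 6 a second class II gene was called lower. The chaperone Tapbp read 3.99 to 4.21 on saline (median 4.05) and 4.80 to 6.16 at 20 h (median 5.51), a change of 1.44 ± 0.24 SE (adjusted p = 0.000141). H2-Ab1 did not pass (−0.14 ± 0.38 SE, adjusted p = 0.796). Proteasome genes rose in 7 of 36 (19.4%, against 19.7% over all names), a count that depended on the scaling: it was 22 after quantile normalization, 22 in the deposited processed table, 23 after normexp and quantile normalization and 4 with median centring, and it was 11 to 15 with slide or scan date as a block. None was called lower, and 1 was lower at an unadjusted p under 0.05. The interferon-induced catalytic subunits Psmb8 (1.90 ± 0.28) and Psmb10 (1.71 ± 0.32) and the activator subunit Psme1 (0.75 ± 0.15) were among them, and Psmb9 was not (0.43 ± 0.43 SE, adjusted p = 0.446), although it passed with slide as a block (1.17, adjusted p = 0.0378).

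The unfolded protein response of the endoplasmic reticulum (ER) has an arm through the kinase PERK and the factor ATF4, which raises amino acid synthesis and CHOP, and arms through ATF6 and XBP1, which raise chaperones. Of 31 measured PERK and ATF4 genes 21 rose and 0 fell at 20 h (median 1.45), and 13 were higher than at 6 h, 4 lower. Of 31 ATF6 and XBP1 genes 15 rose and 0 fell (median 0.56), and 16 were higher than at 6 h, 0 lower. In each list 1 member was lower at an unadjusted p under 0.05, and 1 was called lower without saline array 6, as was 1 of the PERK and ATF4 genes without LPS array 6. The promoters of 3 chaperone genes are shown for the ER stress element (CCAAT, any 9 bases, then CCACG) and those of 2 ATF4 targets for the C/EBP-ATF response element TGATGNAA (capitals, either strand). All are the 250 bases before the RefSeq start in GRCm38.p6, 5′ to 3′ along the gene. Hspa5 lies at chr2:34771840-34772089, plus strand, Hsp90b1 at chr10:86705445-86705694, minus strand, Creld2 at chr15:88819396-88819645, plus strand, Asns at chr6:7693210-7693459, minus strand and Chac1 at chr2:119350992-119351241, plus strand. The matches begin 65 bases before the start in Hspa5, 212 and 107 in Hsp90b1, 126 in Creld2, 23 in Asns and 193 in Chac1.
Hspa5: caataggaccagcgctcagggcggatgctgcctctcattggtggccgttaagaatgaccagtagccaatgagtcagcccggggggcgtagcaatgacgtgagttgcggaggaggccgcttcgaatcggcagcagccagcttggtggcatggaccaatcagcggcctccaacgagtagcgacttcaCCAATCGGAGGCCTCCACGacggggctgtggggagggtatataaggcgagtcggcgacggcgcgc
Hsp90b1: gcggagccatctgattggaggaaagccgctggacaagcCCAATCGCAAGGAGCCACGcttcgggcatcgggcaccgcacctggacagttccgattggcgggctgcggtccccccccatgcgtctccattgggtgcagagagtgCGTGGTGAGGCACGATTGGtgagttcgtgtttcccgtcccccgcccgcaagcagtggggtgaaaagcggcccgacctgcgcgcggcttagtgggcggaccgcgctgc
Creld2: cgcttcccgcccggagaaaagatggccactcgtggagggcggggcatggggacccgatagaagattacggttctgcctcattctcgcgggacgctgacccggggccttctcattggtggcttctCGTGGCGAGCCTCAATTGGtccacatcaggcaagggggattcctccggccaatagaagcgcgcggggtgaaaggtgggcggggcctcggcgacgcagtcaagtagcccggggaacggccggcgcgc
Asns: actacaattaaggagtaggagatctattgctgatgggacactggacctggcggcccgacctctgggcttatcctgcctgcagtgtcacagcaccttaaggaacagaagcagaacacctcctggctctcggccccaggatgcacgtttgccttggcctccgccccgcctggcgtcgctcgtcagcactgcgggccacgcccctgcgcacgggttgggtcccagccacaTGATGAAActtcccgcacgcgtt
Chac1: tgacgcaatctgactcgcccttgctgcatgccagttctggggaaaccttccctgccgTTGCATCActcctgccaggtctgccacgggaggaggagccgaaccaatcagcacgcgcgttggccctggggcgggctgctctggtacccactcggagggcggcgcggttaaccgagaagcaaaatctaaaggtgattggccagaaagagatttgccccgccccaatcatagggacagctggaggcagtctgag

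The ER stress element was in 39 of the 32851 windows (0.119%) and in 9 of the 24 ATF6 and XBP1 genes with a window. Of those 9, 7 rose, against 7 of the 15 without it. The C/EBP-ATF element, a shorter motif found in 3.97% of windows, was in 11 of 25 PERK and ATF4 genes, 5 of which rose, against 12 of the 14 without it. Genes were again counted by a match in any of their windows, which is not a like measure to the share of windows. These motifs and the interferon one are described here from 14 searched, after their counts were seen, and a match is not evidence of binding.

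The ER chaperone BiP (Hspa5) read 5.80 to 7.06 on saline (median 6.86) and 7.89 to 8.29 at 20 h (median 8.19), so the groups were apart (1.42 ± 0.20 SE, adjusted p = 2.66e-05). It was higher than at 6 h (1.01 ± 0.22 SE, adjusted p = 0.00171). GRP94 (Hsp90b1) read 6.24 to 6.98 on saline (median 6.66) and 7.38 to 8.05 at 20 h (median 7.70), a change of 1.05 ± 0.16 SE (adjusted p = 8.52e-05). Creld2, an ER stress-induced protein, read 3.14 to 5.62 on saline (median 4.89) and 7.04 to 7.66 at 20 h (median 7.25), a change of 2.57 ± 0.34 SE (adjusted p = 1.55e-05). All 3 were above every saline value on every LPS array. Sdf2l1, a BiP cofactor, had been at 0.69, 1.63, 1.38 and 1.47 at 6 h and was at 3.64 to 4.84 at 20 h (3.04 ± 0.32 SE, adjusted p = 2.82e-06), and the degradation factor Derl3 was also higher than at 6 h (3.03 ± 0.55 SE, adjusted p = 0.000333). CHOP (Ddit3), which favours apoptosis under sustained stress, read −2.03 to −0.81 on saline (median −1.14) and 1.07 to 2.08 at 20 h (median 1.66), a change of 2.89 ± 0.23 SE (adjusted p = 1.15e-07). It was 3.05 higher than at 6 h. Asparagine synthetase (Asns) read 0.34 to 1.77 on saline (median 1.16) and 3.14 to 5.18 at 20 h (median 3.78), a change of 2.79 ± 0.39 SE (adjusted p = 2.56e-05). The serine synthesis enzymes Psat1 (4.50 ± 0.38) and Phgdh (2.74 ± 0.30) rose as well. Trib3, an ATF4 target, did not pass (0.25 ± 0.22 SE, adjusted p = 0.391), nor did the isomerase Pdia4 (0.05 ± 0.30 SE, adjusted p = 0.904). Cytosolic heat shock genes rose in 2 and fell in 4 of 15: the cochaperone Bag3 rose by 1.30 ± 0.28, the small heat shock protein Hspb1 fell by 1.27 ± 0.23, and 8 of the list were lower than at 6 h. With scan date as a block 7 of the list fell, and after quantile normalization 4 rose.

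Bile acid synthesis genes fell in 13 of 18, with 1 rise (Ch25h), and bile acid, sterol and organic ion transporters fell in 17 of 23 with 2 rises. Cyp7a1, which sets the rate of bile acid synthesis from cholesterol, read −0.97 to 0.69 on saline (median −0.03) and −6.37 to −4.68 at 20 h (median −5.99) and was not well above background on any LPS array, which makes it at least 32.5-fold lower (−5.76 ± 0.37 SE, adjusted p = 1.52e-08). The sodium-taurocholate uptake carrier Slc10a1 read 5.29 to 5.90 on saline (median 5.72) and 0.83 to 1.96 at 20 h (median 1.39), a change of −4.24 ± 0.21 SE (adjusted p = 2.23e-09). The bile salt export pump Abcb11 read 6.94 to 8.23 on saline (median 7.76) and 1.31 to 3.32 at 20 h (median 2.63), a change of −5.17 ± 0.33 SE (adjusted p = 1.52e-08). The organic anion importer Slco1b2 read 7.34 to 7.79 on saline (median 7.50) and 1.87 to 4.36 at 20 h (median 2.48), a change of −4.54 ± 0.37 SE (adjusted p = 1.16e-07). Transcripts for uptake at the sinusoid and for export at the canaliculus were thus both lower, with no overlap of arrays. At 6 h Abcb11 was at 6.66, 7.06, 6.74 and 7.63, and 19 of the 23 transporters were lower at 20 h than at 6 h, none higher. The transporters of this list that rose were the cholesterol exporter Abca1 (1.66 ± 0.20) and Ostb, the basolateral bile acid exporter subunit (2.39 ± 0.67). The steroid sulfate carrier Slc10a6 was not in the list and rose by 7.55 ± 0.83.

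The list of cytochrome P450 genes of families 1 to 4 also holds their electron donor Por. Of its 44 measured genes 36 fell and 3 rose (median −1.88), and 36 were lower than at 6 h. Cyp3a11, the main xenobiotic-metabolizing P450 of mouse liver, read 4.77 to 6.40 on saline (median 5.79) and 2.26 to 4.09 at 20 h (median 3.52) and had been at 8.44, 7.79, 7.67 and 7.95 at 6 h (−4.60 ± 0.38 SE, adjusted p = 2.75e-07). Cyp2f2 fell by 3.57 ± 0.35 and Cyp4f15 by 4.003 ± 0.42, whereas the smallest fall among the first genes of the list was that of Cyp2e1 (−0.79 ± 0.20), which did not pass after quantile normalization (−0.55, adjusted p = 0.0775), after normexp with quantile normalization or in the deposited processed table. The risers were Cyp1b1 (3.49 ± 0.32), which non-parenchymal cells also make, the electron donor Por (1.02 ± 0.19) and Cyp3a13 (0.68 ± 0.17). Phase II conjugating enzymes fell in 44 of the 49 measured in the list and rose in 1, the nicotinamide methyltransferase Nnmt. Nnmt read 2.15 to 6.64 on saline (median 3.55) and 7.77 to 8.79 at 20 h (median 7.96), a change of 4.26 ± 0.54 SE (adjusted p = 1.13e-05). The sulfotransferase Sult1e1, also a conjugating enzyme, was not in this list and rose by 7.41 ± 0.55. The glucuronosyltransferase Ugt2b1 read 4.09 to 4.92 on saline (median 4.38) and 0.90 to 2.52 at 20 h (median 1.18), so that the means were 8-fold apart (adjusted p = 5.12e-07). Steroid dehydrogenases and reductases fell in 22 and rose in 0 of 25 (median −3.14), including the glucocorticoid-activating Hsd11b1 (−1.17 ± 0.22) and the ketosteroid reductases Akr1c6 (−4.49 ± 0.40) and Akr1c14 (−5.63 ± 0.37).

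Genes for the urea cycle and amino acid breakdown or synthesis fell in 33 and rose in 7 of 50 cases (median −1.38). The first urea cycle enzyme Cps1 read 7.05 to 7.89 on saline (median 7.46) and 3.94 to 5.40 at 20 h (median 4.54), a change of −2.86 ± 0.24 SE (adjusted p = 1.59e-07). It was lower on every LPS array than on any saline array. The cystathionine lyase Cth fell by 3.75 ± 0.29. The serine dehydratase-like Sdsl rose to 6.16 to 7.24 from 2.02 to 3.61 (3.88 ± 0.29 SE, adjusted p = 4.59e-08), and arginase Arg1 rose by 0.58 ± 0.17, which did not pass with median centring (adjusted p = 0.0529).

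Cholesterol synthesis and uptake genes fell in 21 of 26 and none rose (median −1.54). Mvd, the last step to isopentenyl pyrophosphate, read 1.51 to 3.70 on saline (median 3.12) and −0.61 to 1.33 at 20 h (median 0.74), a change of −2.31 ± 0.37 SE (adjusted p = 0.000102). Here 6 genes were higher than at 6 h and 4 lower, with Mvd 1.88 higher. Fatty acid and triglyceride synthesis genes fell in 20 of 25 and none rose (median −1.89). The lipogenic factor Srebf1 read 5.84 to 7.16 on saline (median 6.51) and 3.65 to 4.36 at 20 h (median 3.89), a change of −2.52 ± 0.24 SE (adjusted p = 5.9e-07). Acetyl-CoA synthetase Acss2 fell by 4.70 ± 0.24 and the elongase Elovl6 by 3.55 ± 0.32.

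Fatty acid oxidation and PPAR-alpha genes were mixed, with 7 higher (20.0%, against 19.7% of all names) and 14 lower (40.0%) of 35. The dehydrogenase Hadh, of mitochondrial beta-oxidation, fell by 1.99. Pdk4, which blocks pyruvate entry into the citric acid cycle, read −1.44 to 0.83 on saline (median −0.79) and 3.44 to 5.28 at 20 h (median 4.34), a change of 5.03 ± 0.58 SE (adjusted p = 4.16e-06). It was higher than at 6 h (2.56 ± 0.65 SE, adjusted p = 0.00469). Neither Ppara (−0.19 ± 0.24 SE, adjusted p = 0.543) nor the carnitine palmitoyltransferase Cpt1a (0.25 ± 0.29 SE, adjusted p = 0.524) passed, but with slide as a block Ppara did (−0.60, adjusted p = 0.0412).

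Lipid droplet and lipoprotein genes rose in 7 (24.1%) and fell in 11 (37.9%) of 29, against 19.7% and 23.3% of all names. Proteins of the droplet surface were among the risers. Cidec, which fuses lipid droplets, read −1.52 to 0.98 on saline (median −0.64) and 5.17 to 6.49 at 20 h (median 6.34), a change of 6.42 ± 0.44 SE (adjusted p = 2.2e-08). Perilipin 4 (printed on the array as S3-12) read −1.83 to −0.43 on saline (median −1.46) and 2.81 to 4.33 at 20 h (median 3.41), a change of 4.65 ± 0.33 SE (adjusted p = 2.93e-08). Perilipin 2 (Adfp) rose by 1.92 ± 0.20 and Cidea by 4.73 ± 0.52. All 4 were apart from saline, and all 4 were higher at 20 h than at 6 h, by 2.84 for Cidec, 3.94 for S3-12, 1.64 for Adfp and 3.36 for Cidea. The falls included hepatic lipase Lipc (−1.66 ± 0.24) and lipoprotein lipase Lpl (−2.04 ± 0.34). G0s2, the inhibitor of adipose triglyceride lipase, did not pass against saline (0.33 ± 0.59 SE, adjusted p = 0.692) but had been at −3.46, −4.34, −2.52 and −4.82 at 6 h (6.31 ± 0.66 SE, adjusted p = 2.48e-06).

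**Figure D2:**
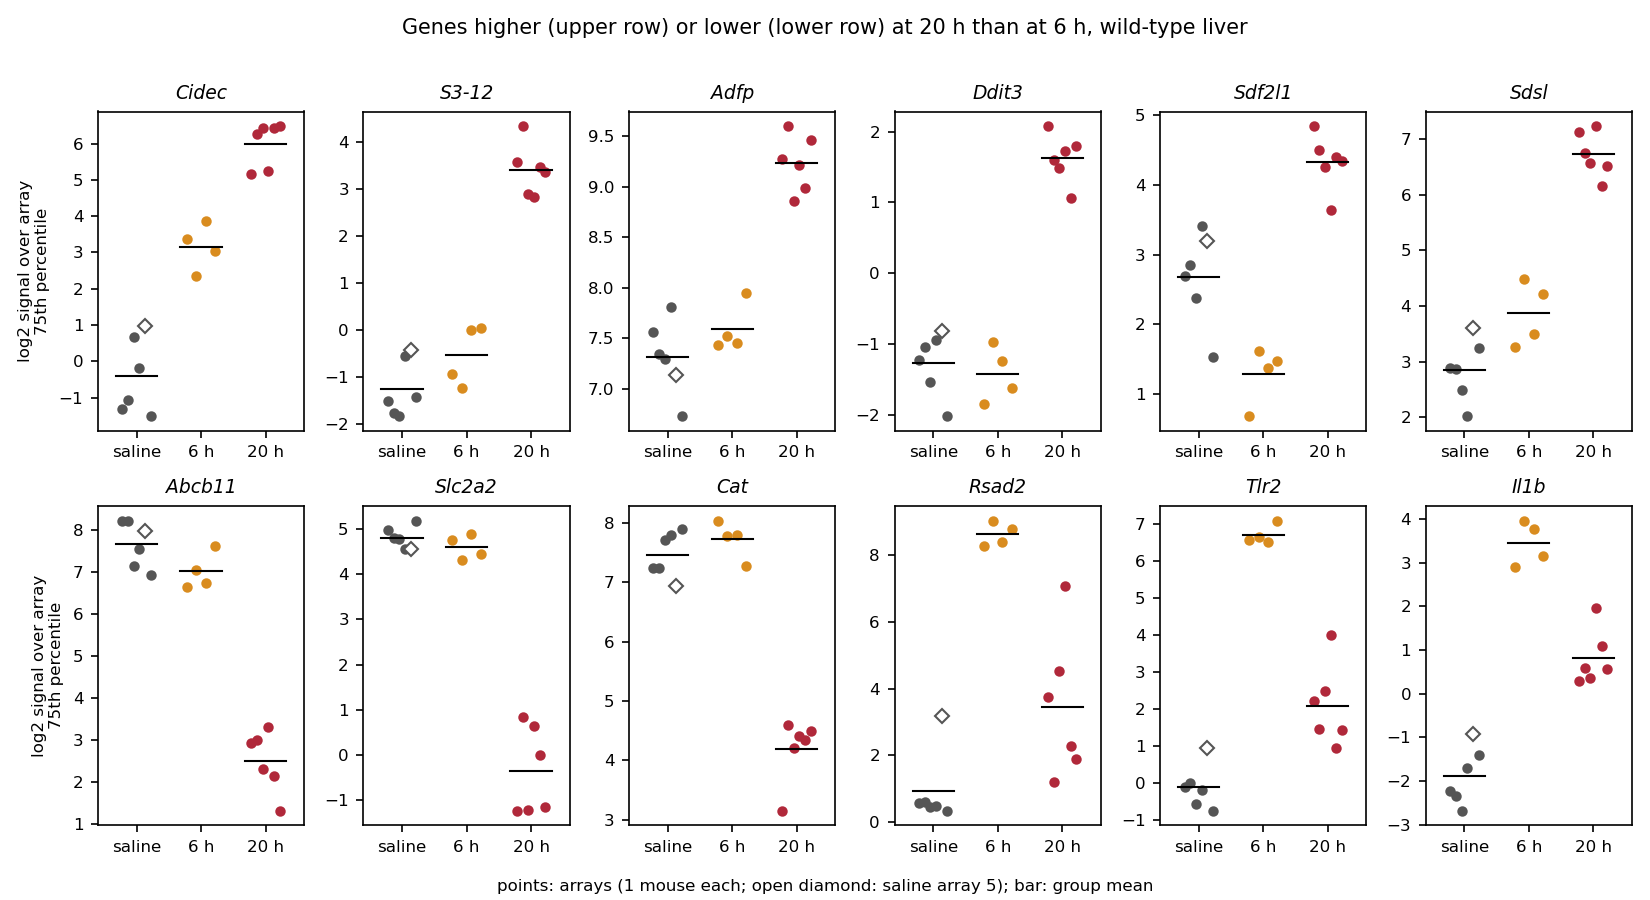
Log2 value on each wild-type array (points) and group mean (bar) at saline, 6 h and 20 h for 6 genes that were higher at 20 h than at 6 h (upper row: Cidec, S3-12, Adfp, Ddit3, Sdf2l1, Sdsl) and 6 that were lower (lower row: Abcb11, Slc2a2, Cat, Rsad2, Tlr2, Il1b), with saline array 5 as an open diamond. Cidec lies at 3.37, 2.34, 3.88 and 3.05 at 6 h and between 5.17 and 6.49 at 20 h.

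Gluconeogenesis and glycogen genes fell in 11 and rose in 4 of 19 (2 rose with all 32 arrays). The glucose carrier Slc2a2 read 4.55 to 5.18 on saline (median 4.78) and −1.23 to 0.84 at 20 h (median −0.58), a change of −5.16 ± 0.35 SE (adjusted p = 1.94e-08). Glucose-6-phosphatase (G6pc) read 4.70 to 6.17 on saline (median 5.27) and 3.28 to 4.51 at 20 h (median 3.67), a change of −1.72 ± 0.29 SE (adjusted p = 0.000171). It had been at −0.52, 0.51, 0.56 and 0.17 at 6 h (3.55 ± 0.33 SE, adjusted p = 7.56e-07). With all 32 arrays in the fit the change of G6pc against saline did not pass (adjusted p = 0.0701). Glycolysis and pentose phosphate genes rose in 10 and fell in 4 of 23. Pfkfb3, the inducible activator of phosphofructokinase, read −0.72 to 1.92 on saline (median −0.15) and 2.45 to 5.23 at 20 h (median 4.21), a change of 3.76 ± 0.51 SE (adjusted p = 1.95e-05). Hexokinase Hk2 (2.13 ± 0.32) and the lactate exporter Slc16a3 (2.71 ± 0.32) rose, while the hepatic Pfkfb1 fell (−2.43 ± 0.50).

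Oxidative phosphorylation subunits fell in 38 of 49 and none rose, with a median of −0.80, and 37 were lower than at 6 h. The list's level over the saline mean differed by scan date among the saline arrays. It ran from −0.35 to −0.29 on the first date and from 0.20 to 0.49 on the second. At 6 h limma called 0 of the 49 against saline, and 0 had an unadjusted p under 0.05, while 34.4% of all names were called at that time. Ndufs8 of complex I read 2.82 to 3.21 on saline (median 2.86) and 1.32 to 1.76 at 20 h (median 1.59), a change of −1.36 ± 0.14 SE (adjusted p = 1.46e-06). Sdhb of complex II read 5.45 to 5.98 on saline (median 5.63) and 4.23 to 5.11 at 20 h (median 4.31), a change of −1.18 ± 0.19 SE (adjusted p = 0.000105). Cox4i1 of complex IV read 6.92 to 7.37 on saline (median 7.23) and 6.37 to 6.87 at 20 h (median 6.61), a change of −0.59 ± 0.15 SE (adjusted p = 0.00556). These 3 were lower on every LPS array, although Cox4i1 did not pass after quantile normalization (−0.26, adjusted p = 0.187), and Atp5b of the ATP synthase fell with overlap (−0.55 ± 0.16).

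NRF2 and antioxidant genes rose in 3 (5 after quantile normalization) and fell in 9 of 30. Catalase (Cat) read 6.93 to 7.89 on saline (median 7.47) and 3.15 to 4.59 at 20 h (median 4.37), a change of −3.26 ± 0.25 SE (adjusted p = 6.99e-08). The glutathione synthesis subunits Gclc (−1.70 ± 0.27) and Gclm (−1.57 ± 0.27) fell. The mitochondrial superoxide dismutase Sod2 (1.56 ± 0.23), the plasma peroxidase Gpx3 (2.48 ± 0.32) and Hmox1 rose. Iron and metal genes rose in 12 and fell in 9 of 29. The iron exporter ferroportin (Slc40a1) read 3.97 to 4.62 on saline (median 4.28) and −1.67 to 1.98 at 20 h (median −0.19), a change of −4.23 ± 0.52 SE (adjusted p = 8.26e-06). The hepcidin-restraining protease Tmprss6 fell by 2.49 ± 0.16, and transferrin receptor Tfrc rose by 1.60 ± 0.30.

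p53 targets and apoptosis regulators rose in 24 and fell in 3 of 34 cases. The cell cycle inhibitor p21 (Cdkn1a) read −3.50 to −0.40 on saline (median −2.39) and 2.40 to 4.05 at 20 h (median 3.12), a change of 5.39 ± 0.49 SE (adjusted p = 3.47e-07). Gadd45g rose by 3.98 ± 0.49 and the p53 ligase Mdm2 by 1.13 ± 0.21, whereas the pro-apoptotic Bbc3 fell by 1.61. Without LPS array 4 5 of the list fell. Immediate early and AP-1 genes rose in 17 of 25 and none fell, or 1 without LPS array 4. Ier3, a stress-induced survival factor, read −4.83 to −0.64 on saline (median −4.02) and 1.32 to 4.15 at 20 h (median 3.001), a change of 6.48 ± 0.60 SE (adjusted p = 4.4e-07). Jun (2.20 ± 0.32), Myc (2.29 ± 0.27) and Cebpd (3.19 ± 0.34) rose but were below 6 h. Hypoxia and angiogenesis genes rose in 5 and fell in 5 of 21, shares near those of all names (8 rose with slide as a random block, and 3 fell with all 32 arrays). Hif1a rose by 2.67 ± 0.30 and the carbonic anhydrase Car9 fell by 2.36.

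Replication and G1/S genes rose in 5 (8 with slide as a random block) and fell in 10 of 38, and G2/M genes rose in 0 and fell in 7 of 22, a count that went to 3 or 4 without saline array 3 or 5 or without LPS array 1, 5 or 6, and to 2 with all 32 arrays in the fit. Thymidine kinase Tk1 read 0.87 to 2.41 on saline (median 1.60) and −2.67 to −1.46 at 20 h (median −2.19), a change of −3.78 ± 0.27 SE (adjusted p = 3.32e-08). The replication factor Mcm10 read 4.99 to 5.82 on saline (median 5.34) and 1.11 to 2.34 at 20 h (median 1.81), a change of −3.53 ± 0.25 SE (adjusted p = 2.7e-08), both apart. The proliferation marker Mki67 (−0.02 ± 0.26 SE, adjusted p = 0.953) and the clamp Pcna (0.13 ± 0.16 SE, adjusted p = 0.541) did not pass. Ribosome biogenesis and nucleolar genes rose in 19 of 28 and none fell (median 0.71). Nol5a (now Nop56), a core protein of box C/D particles, read 1.91 to 3.04 on saline (median 2.55) and 3.46 to 4.13 at 20 h (median 3.92), a change of 1.32 ± 0.24 SE (adjusted p = 0.000442), although the mean over its probes did not pass (0.69, adjusted p = 0.356). The 40S maturation factor Tsr1 rose by 1.54 ± 0.18.

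Circadian clock genes rose in 6 (35.3%) and fell in 4 (23.5%, against 23.3% of all names) of 17 (2 fell with all 32 arrays). The output factor Dbp read 3.47 to 5.70 on saline (median 5.17) and 0.60 to 2.19 at 20 h (median 1.58), a change of −3.32 ± 0.39 SE (adjusted p = 4.67e-06). Per1 rose by 2.12 ± 0.35. The hour of killing is not given in the labels, and both groups are labelled 20 h. Hepatocyte transcription factors and nuclear receptors rose in 3 and fell in 12 of 28. The xenobiotic receptor CAR (Nr1i3) read 1.86 to 3.31 on saline (median 2.36) and −0.999 to 1.44 at 20 h (median 0.46), a change of −2.14 ± 0.40 SE (adjusted p = 0.000415). Cebpa fell by 1.80 ± 0.31, and Hnf4a rose by 0.58 ± 0.15. The bile acid receptor Nr1h4 fell by 1.04 ± 0.33 and did not pass after quantile normalization (−0.81, adjusted p = 0.0825). In the growth hormone and IGF axis 2 of 20 rose and 8 fell. The growth hormone receptor Ghr read 5.85 to 6.37 on saline (median 6.02) and 4.34 to 5.29 at 20 h (median 4.53), a change of −1.45 ± 0.17 SE (adjusted p = 5.93e-06). The signal transducer Stat5b fell by 1.08, while Igf1 did not pass (−0.19 ± 0.16 SE, adjusted p = 0.353). The risers were Igfbp1 (2.93 ± 0.49) and the leptin receptor Lepr, which read −5.20 to −3.05 on saline (median −3.71) and 0.42 to 1.91 at 20 h (median 1.36), a change of 5.09 ± 0.33 SE (adjusted p = 1.63e-08). Injury and regeneration genes rose in 14 and fell in 1 of 26: the calcium-binding S100a11 read −1.73 to −0.17 on saline (median −1.27) and 3.17 to 3.72 at 20 h (median 3.31), a change of 4.48 ± 0.25 SE (adjusted p = 3.78e-09). The tubulin Tubb6 rose by 2.35 ± 0.30 on the probe used but changed by −0.55 (adjusted p = 0.167) in the mean over its probes, and the keratins Krt8 and Krt18 rose by 0.73 and 0.86. The fall was Tff3, it was not called without saline array 2, and 2 fell without saline array 6 or LPS array 2.

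Complement genes fell in 17 and rose in 1 of 29 (median −0.77), and 18 were lower than at 6 h. C8a, a chain of the membrane attack complex, read 6.04 to 6.30 on saline (median 6.19) and 4.33 to 5.15 at 20 h (median 4.42), a change of −1.66 ± 0.16 SE (adjusted p = 7.7e-07). The component C9 fell by 1.92. C3 did not pass (−0.27 ± 0.22 SE, adjusted p = 0.345), except with array weights (−0.54, adjusted p = 0.0422). The rise was Cd55, an inhibitor of complement on host cells, which did not pass in the mean over its probes (0.20, adjusted p = 0.601), and 2 rose without LPS array 5. Coagulation and fibrinolysis genes rose in 6 (20.7%, against 19.7% of all names) and fell in 15 (51.7%) of 29. Plasma prekallikrein (Klkb1) read 3.11 to 3.70 on saline (median 3.50) and −2.16 to −0.13 at 20 h (median −1.29), a change of −4.74 ± 0.25 SE (adjusted p = 3.07e-09). Heparin cofactor II (Serpind1) fell by 3.86 and factor VII (F7) by 2.08. The urokinase receptor Plaur (4.93 ± 0.49) and thrombomodulin (Thbd, 2.82 ± 0.44) rose.

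**Figure D3:**
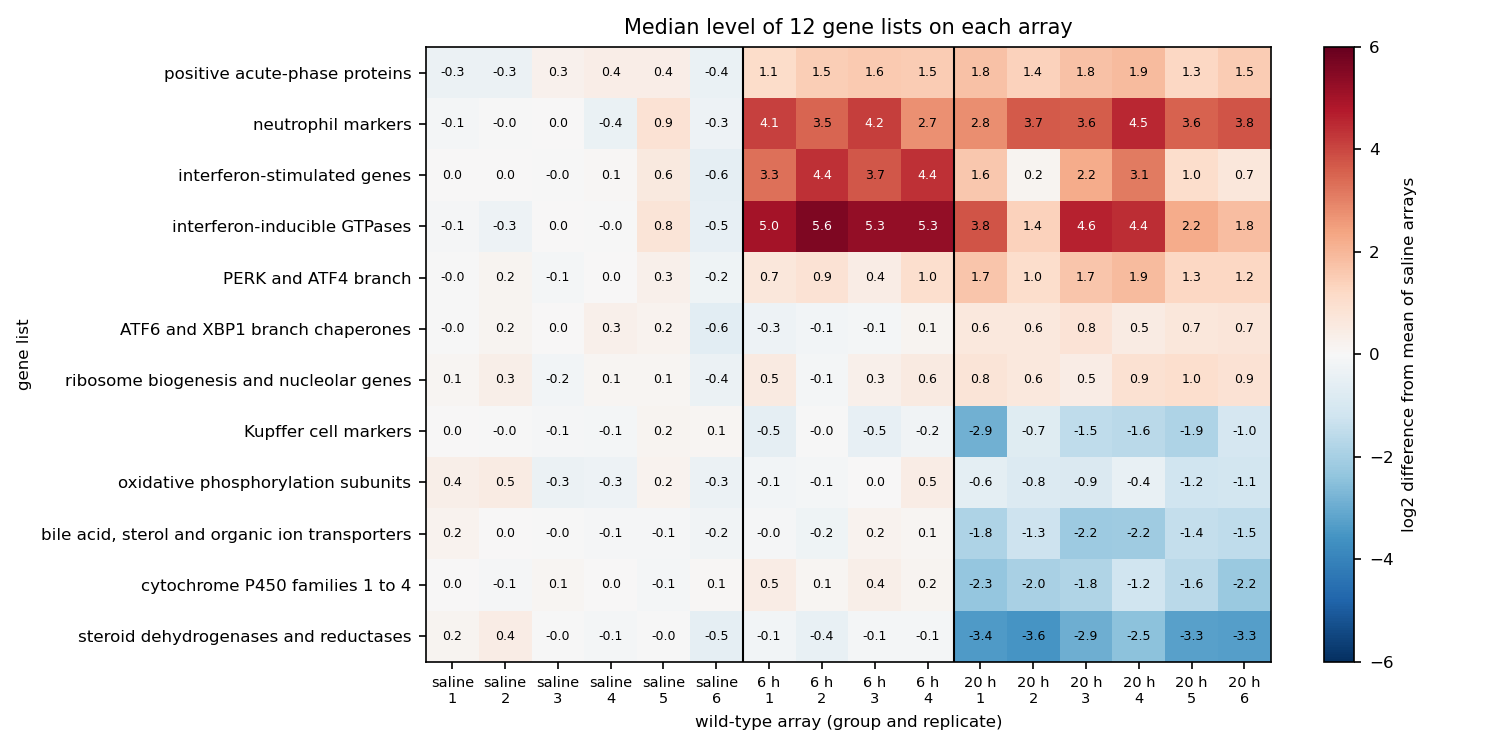
Median log2 level of 12 gene lists on each wild-type array, relative to the mean of the saline arrays (rows: lists, columns: arrays grouped as saline, 6 h and 20 h, colour: log2 difference). At 20 h the interferon-stimulated list runs from 0.18 to 3.10, the neutrophil list from 2.79 to 4.53 and the steroid dehydrogenase list from −3.56 to −2.45.

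The same contrast was set beside mice labelled E2F1-/-, which share no array with the wild-type groups. The E2f1 probe (mm9 chr2:154386004-154386063) read −4.55 to −2.40 in the saline mice labelled E2F1-/- and −5.05 to −2.30 in the wild type on saline, so it did not separate the genotypes. The labels do not say which part of the gene is deleted, and the probe therefore does not check the labels. In wild-type mice at 20 h E2f1 was measured on 5 arrays, was well above background on 2 of them, and fell by 2.21 (adjusted p = 0.0015), while in the deposited processed table its change did not pass (−0.55, adjusted p = 0.113). Earlier work on these data had found 2 arrays of mice labelled E2F1-/- to stand apart from their labels. For that reason these mice were kept out of the main fit. Saline array 1 of the mice labelled E2F1-/- stands apart: its correlation with the other 5 was 0.894 to 0.898 across genes, where those 5 reached up to 0.982 among themselves. Values are given with and without it, and with no other array of these mice left out. In those mice 4870 names were called at 20 h (26.5%), 2168 higher (11.8%) and 2702 lower (14.7%), and without that array 6289 (34.2%), 2886 higher (15.7%) and 3403 lower (18.5%). Of the 7906 names called in the wild type, 7577 (95.8%) had the same sign of change in them, 4051 (51.2%) were also called, in the same direction, and 5 were called in the opposite direction. Without that array these counts were 7627, 5004 and 12.

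The genotype difference of the 20 h response was tested as an interaction, which called 8 of 18383 names (0.0435%), 3 with a positive difference (0.0163%) and 5 with a negative one (0.0272%), none of them in any of the 58 lists, with 1243 at an unadjusted p under 0.05. Without that array it called 18 (0.0979%), 3 positive (0.0163%) and 15 negative (0.0816%). The strain label differs along with the genotype label, so the 2 cannot be told apart in this test or in the genes below. The plasma protease Adamts13, which cleaves von Willebrand factor, changed by 3.25 in the wild type and by −1.74 in mice labelled E2F1-/- (difference −4.99 ± 0.58, adjusted p = 0.000179). The sorting receptor Sorl1 changed by −2.71 and 0.68 (difference 3.40 ± 0.44, adjusted p = 0.000656), the matrix protein Fras1 by −3.11 and −0.49, and the chemokine receptor Ccr3 by −2.40 and −0.53. These 4, with 4 clone or transcript names, were named after their values were seen.

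Counts of members called were lower in some lists and higher in others in mice labelled E2F1-/-, and limma's interaction test, adjusted over all names, called no list member. The calls and SEs of the 2 genotypes come from different fits, as said above. ATF6 and XBP1 genes rose in 15 of 31 in the wild type and in 1 in those mice, or 5 without that array. Hspa5 changed by 0.12 ± 0.34 there (0.41 ± 0.30 without that array), against 1.42 ± 0.20 in the wild type (interaction adjusted p = 0.583), and Asns by 0.32 ± 0.48 (0.32 ± 0.51 without it) against 2.79 ± 0.39 (interaction adjusted p = 0.329). Ribosome biogenesis genes rose in 19 and in 2 (without that array 7), and oxidative phosphorylation subunits fell in 38 and in 18 (without it 15). Cholesterol genes fell in 21 and in 7 (without it 14). Proteasome genes rose in 7 and in 13 of 36 (without it 18), and interferon-stimulated genes in 20 and in 15 of 34 (without it 31). Neutrophil markers rose in 25 and 24 of 28 (without it 25), and genes of the cytochrome P450 list fell in 36 and 31 of 44 (without it 32). The interaction had an unadjusted p under 0.05 for 1243 of all 18383 names in either direction, and the split by direction was not counted. A count near that share is no result about a list, and only some of the 58 lists are named. The interaction was positive for 5 and negative for 1 of 29 coagulation and fibrinolysis genes. At an unadjusted p under 0.05, the interaction was positive for 9 of 26 cholesterol genes, 3 of 49 oxidative phosphorylation subunits and 1 of 36 proteasome genes. It was also positive for 1 of 44 genes in the cytochrome P450 list, and negative for 0 in the cholesterol, oxidative phosphorylation, proteasome and cytochrome P450 lists. It was negative for 6 of 28 ribosome biogenesis genes, 4 of 31 ATF6 and XBP1 genes and 6 of 31 PERK and ATF4 genes, and positive for 0 in these 3. For interferon-stimulated genes and neutrophil markers it was 0 in both directions.

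**Figure D4:**
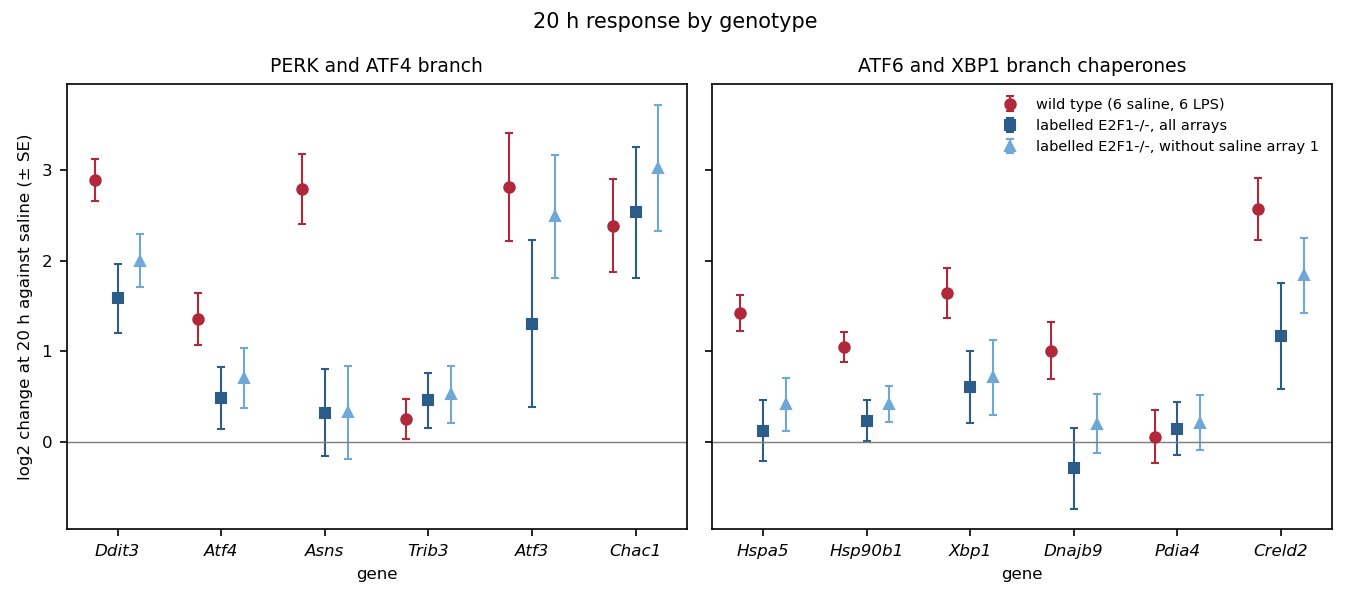
Log2 change at 20 h against saline ± SE for the first 6 genes of the PERK and ATF4 list and of the ATF6 and XBP1 list, in wild-type mice and in mice labelled E2F1-/- (all arrays, and without saline array 1). Hspa5 is at 1.42 in the wild type and 0.12 in mice labelled E2F1-/-, and no difference in this plot passed the interaction test.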

How the data were processed

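RNA from 1 mouse per array was labelled with Cy3 and hybridised to 1-colour Agilent 4x44K mouse arrays, per the labels' protocols. The tissue label is liver, while the extraction label names lung, as said above. Each file holds the deposited spot intensity of 1 array from Feature Extraction, background-subtracted and detrended but not scaled between arrays, per the file headers. A table of log2 values deposited by the authors served as an alternative. Its scaling and centring are not given in the sources used here, and its columns correlated with their own arrays at 0.980 to 0.991.

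Of 43379 spots that are not controls, outlier spots were left out and the rest averaged to 41174 probes. Each probe's log2 intensity was reduced by the log2 of the array's 75th percentile. Probes well above background on at least 4 of the 16 wild-type arrays were kept (27098), and the brightest kept probe stood for each of 18383 gene names. Of these, 15147 matched a RefSeq gene, 2333 of them under another symbol now. Among 2885 called names with several kept probes, 595 had another probe of the opposite sign.

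The model of limma 3.58.1 in R 4.3.3 was fitted to the 16 wild-type arrays. For the change in mice labelled E2F1-/- and for the genotype difference it was fitted to 24 arrays of both genotypes. It was tested on simulated data. Mice were the replicates. The members and the 58 gene lists (1415 genes, 1335 measured) were chosen with earlier results of these data known. The genes named are the first 6 of each list, up to 3 called members with the largest rise and 3 with the largest fall, its brightest member that was not called, and the 15 largest rises and 15 largest falls among called genes whose groups did not overlap and that were well above background on every array of the higher group, without clone names. A few others, such as Adamts13 and the members of small counts, were named after their values were seen. Some genes that this rule names are not reported here. "At least" folds set the higher group's mean against the lowest signal well above background on the other group's arrays, or the probe's own signal where that was higher.

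Motifs were searched on both strands in 32851 RefSeq promoter windows of 300 bases (GRCm38.p6). Besides those described, they were ER stress element II (ATTGG, any base, CCACG; in 0.0365% of windows), UPR element TGACGTGG (0.676%), gamma-activated site TTCNNNGAA (8.30%), NF-kB site (GGGA, any base, TTTCC, 0.411%, or GGGA, any 2 bases, TTCC, 1.47%), sterol response element TCACNCCAC (1.24%), cAMP response element TGACGTCA (1.79%), p53 site (CATG, any 6 bases, CATG, 0.712%), HNF1 site (GTTAAT, any base, ATTAA, 0.0609%), AP-1 site TGANTCA (7.81%) and CCAAT box (37.4%), which the ER stress element contains. Alternatives changed the arrays in the fit, scaling, background correction, probe filter and summary, slide, scan date, replicate number, array weights, moderation, threshold and single arrays.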

Additional observations from a re-analysis of the deposited data

Results flagged for a closer look

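Of 521 groups of arrays tested for a single distant value, 41 were picked out by Dixon's criterion, and chance picks out about 1 in 20 groups. Wild-type saline array 5 was the highest saline array in 17 of them. It had the neutrophil marker list at 0.88 over the saline mean, where the next array was at 0.02. It had Cxcl9 at 3.89, Cd14 at 3.55, Rsad2 at 3.19, Gbp2 at 2.54, Il1rn at 0.82, Sult1e1 at 0.68 and Il33 at 0.41. Ubd was at −0.091, Slc10a6 at −0.27, Plaur at −0.47, Mki67 at −0.55, Ier3 at −0.64, Reg3g at −1.26, Itgam at −2.82 and Il1r2 at −3.52. The next saline array had Sult1e1 at −2.81 and Rsad2 at 0.61. Most of these genes rose at 20 h, but Pfkfb1, at 3.56 on the same array, fell.

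LPS array 4 was the highest of its group for genes that fell and for genes that rose. Among those that fell it had Hsd3b5 at −0.37, where the next array was at −3.10, Hsd3b4 at −0.25, Cyp7a1 at −4.68, Cebpa at 4.74, C8a at 5.15, Ghr at 5.29 and Rbp4 at 9.01. Among those that rose it had Chi3l3 at 4.41, Tubb6 at 5.17 and Spp1 at 5.68. LPS array 1 was the lowest for Gpx3 (−1.15), Colec11 (−1.62), Hadh (2.28), Cat (3.15) and Cyp2e1 (6.15). LPS array 2 was the highest for E2f1, at −4.03 over 5 arrays, and the lowest for Timp3, at 1.46. LPS array 6 was the highest for Bbc3, at 1.88.

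On the other saline arrays, array 2 was the highest for Tsr1 (0.78) and Ndufs8 (3.21), array 3 the lowest for Krt7 (−2.90) and array 4 the lowest for Ciita (−3.05). Saline array 6 was the highest for Slc17a8 (1.52) and the lowest for Hspa5 (5.80). The lowest Hspa5 value in saline thus came from 1 array, and the next was at 6.61.

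The 20 h response of mice labelled E2F1-/- minus that of the wild type passed the limma interaction test for 8 names on the log2 scale. The difference was −4.99 for Adamts13, 3.40 for Sorl1, 2.62 for Fras1 and 1.87 for Ccr3. Among clone and transcript names it was −5.44 for NAP062699-1, −4.93 for C330011K17Rik, −1.85 for NAP123224-1 and −1.39 for 2810403A07Rik.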

How the results depend on the processing

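Against saline, the counts of 3617 higher and 4289 lower stayed within 1.5 times under every setting run except a stricter threshold: 2375 were higher at an adjusted p of 0.01 and 2173 with at least a 2-fold change. Leaving out 1 array at a time gave 3149 to 3815 higher and 3916 to 4452 lower. Against 6 h, 3124 to 3867 were higher and 3306 to 3881 lower without 1 array, and slide as a fixed block left 1985 higher of 3729. The median change from 6 h over all names was −0.06, and 0.10 after quantile normalization. The interaction called 15 lower without E2F1-/- saline array 1, against 5 with it. Same-numbered saline and LPS mice were not paired by their values: their deviations correlated at −0.23 to 0.30, and 1 of 6 correlated best with its own number. With the replicate number as a block, 3518 were higher and 4168 lower against saline, 3385 and 3473 against 6 h, 2149 and 2695 in mice labelled E2F1-/-, and 1 and 2 in the interaction, against 3 and 5 without the block. Of 251 genes checked over 31 settings, 201 kept their side of the threshold throughout. Direction was compared only where a gene was called in the main fit or under the setting. Apart from the stricter thresholds and the single scan dates, 225 kept their side. On the single dates fewer arrays were fitted, and 17 or 30 genes lost their call. Across all genes and settings, 115 calls were lost and 19 gained, and 1 called gene reversed its sign: Tubb6 changed by −0.55 in the mean over its probes. Causes of these changes were not tested. Signals near background limit the folds of dim genes, and 6 arrays a group limit the precision.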
